A study of Homo sapiens with 12 samples.

Results

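The human mitochondrial genome was followed by RNA-seq in cells labelled MM1S, a line derived from a patient with multiple myeloma, a cancer of plasma cells. The transcripts described here are the 37 of 59276 rows of the expression table whose symbol starts with MT-. They comprise 13 mRNAs, 2 rRNAs and 22 tRNAs, and all 37 were found on chromosome M in GENCODE release 29. Total RNA was sequenced in 12 libraries, 3 in each of 4 groups. The untreated libraries (H1 to H3) are labelled day 0, and the others were taken after 2 days (H4 to H6), 3 days (H7 to H9) and 5 days (H10 to H12) in 10 µM NGI-1 in the medium. NGI-1 blocks oligosaccharyltransferase, the enzyme of the endoplasmic reticulum that places N-glycans on proteins as they are made. NGI-1 also stands in the treatment label of the day 0 libraries, which were read as untreated because the study describes them so, and whether they received the solvent DMSO is not given in the sources used here. No untreated library was taken after 2, 3 or 5 days. Every difference from untreated cells therefore holds both NGI-1 and time in culture, and the 2 cannot be told apart. All libraries come from 1 cell line, and no label says that the libraries of a group were grown as separate cultures, so p-values measure the spread between libraries, which may be technical. The question put to these data was which mitochondrially encoded transcripts differed between the untreated cells and each day of NGI-1, and by how much.

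The mitochondrial genome is a small circular DNA that encodes core subunits of the respiratory chain and of ATP synthase, together with the rRNAs and tRNAs needed to translate them. Its strands are copied by a dedicated polymerase into long transcripts that hold many genes, and most mRNAs and rRNAs are released when the tRNAs between them are cut out. The levels of the mature RNAs therefore depend on transcription, cleavage, polyadenylation and decay, and the proteins that carry out these steps are encoded in the nucleus and imported. In most cells the respiratory chain is the main source of ATP.

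Of the 13 mRNAs, 7 encode subunits of complex I, the NADH dehydrogenase, 1 encodes cytochrome b of complex III, 3 encode the catalytic core of complex IV, cytochrome c oxidase, and 2 encode subunits of ATP synthase. GENCODE places 12 of the mRNAs and both rRNAs on the + strand of chromosome M and MT-ND6 on the - strand, with 14 tRNAs on the + strand and 8 on the - strand. Some neighbours overlap. The ends of MT-ATP8 and MT-ATP6 and those of MT-ND4L and MT-ND4 are shown here because each pair shares bases, so a read there can belong to either gene. The 13 mRNAs are counted as 1 per gene. The values do not tell whether the genes of such a pair lie on the same RNA molecule. In GRCh38 the end of MT-ATP8 lies at chrM:8513-8572 and the start of MT-ATP6 at chrM:8527-8586, both on the + strand and exonic, and the 46 bases that both genes hold are in capitals.
MT-ATP8: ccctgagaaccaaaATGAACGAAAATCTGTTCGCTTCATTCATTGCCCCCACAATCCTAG
MT-ATP6: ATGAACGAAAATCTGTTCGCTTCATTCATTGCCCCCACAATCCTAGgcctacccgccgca
The end of MT-ND4L lies at chrM:10707-10766 and the start of MT-ND4 at chrM:10760-10819, with the 7 shared bases in capitals.
MT-ND4L: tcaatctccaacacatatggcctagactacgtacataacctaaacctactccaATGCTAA
MT-ND4: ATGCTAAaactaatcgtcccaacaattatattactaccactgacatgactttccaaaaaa

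The values are TPM, a measure of transcript abundance that corrects for length and sums to the same total in every library, so levels of different genes can be set side by side. TPM is a share: a transcript can rise in TPM because others fell. Read counts are not part of the table, so the depth behind a value is unknown. Each sample passed 60 M read pairs by its label. In bulk samples, fewer cells and less RNA per cell cannot be told apart. Differences were tested by limma on log2(TPM + 1) over the 11939 features that reached 1 TPM in 3 or more libraries. A feature was called higher or lower where its Benjamini-Hochberg adjusted p was under 0.05 and the size of its log2 fold change passed 0.5. All 15 mRNAs and rRNAs passed this filter. The 3 treated groups share the untreated libraries, so their comparisons are not independent of each other.

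The libraries listed 18164 to 20407 features above 0, and Pearson's r between libraries of a group, across all features, was 0.9915 to 0.9964. The line's label was checked against markers. All 9 plasma cell markers, such as IRF4 and TNFRSF17 (BCMA), had a mean of at least 1 TPM in untreated cells. The fibroblast and myeloid lists stayed under 1 TPM in every library for 5 of 5 genes each, as did 4 of 5 T cell genes. Of 4 epithelial genes 2 had a mean of at least 1 TPM in untreated cells. COL1A2, COL3A1, CD3D, FCGR3A and EPCAM were listed at 0 throughout. The plasma cell list did not stay constant: its summed level was 12000 to 14100 TPM untreated, 19000 to 22200 on day 2, 25500 to 28400 on day 3 and 19900 to 21200 on day 5. Its genes did not all follow the sum. On day 2, 5 of the 9 were called higher and 1 lower, beside 8.04% and 23.2% of all features. On day 5, 2 were called higher and 5 lower, beside 7.73% and 69.8%. The day 5 log2 fold changes had a median of -1.06 and ran from -2.09 (XBP1) to 1.85 (TNFRSF17). The part of these changes in the mitochondrial results was not tested.

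Mitochondrially encoded transcripts took a larger share of the RNA on each day of NGI-1. They held 9.80%, 10.7% and 9.33% of the TPM in the untreated libraries, 11.01%, 10.9% and 11.2% on day 2, 13.4%, 12.4% and 13.9% on day 3 and 14.7%, 14.4% and 13.4% on day 5. Every treated library lay above every untreated one, and day 2 lay below days 3 and 5. The means were 9.95% ± 0.702, 11.04% ± 0.170, 13.2% ± 0.758 and 14.2% ± 0.642 (SD, n = 3 per group).

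The increase was not spread evenly over the complexes. Transcripts for complex IV held 2.89% ± 0.116 of the TPM in untreated cells and 5.27% ± 0.523 on day 5 (SD, n = 3 per group). Complex I went from 3.26% ± 0.230 to 4.45% ± 0.153 and complex III from 0.394% ± 0.021 to 0.582% ± 0.024. The rRNAs went from 0.525% ± 0.016 to 1.03% ± 0.033. In all 4 of these classes no day 5 library overlapped an untreated one. ATP synthase transcripts, at 2.87% ± 0.426 untreated and 2.83% ± 0.087 on day 5, did overlap.

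Within the pool of 13 mRNAs, ATP synthase transcripts lost share and complex IV transcripts gained it. ATP synthase transcripts held 30.4% ± 2.46 of the mRNA pool in untreated cells, 26.3% ± 2.52 on day 2, 22.5% ± 1.73 on day 3 and 21.6% ± 1.64 on day 5 (SD, n = 3 per group). Complex IV held 30.8% ± 1.86, 36.4% ± 1.91, 39.2% ± 1.40 and 40.04% ± 2.20 on the same days. Complex I held 34.6% ± 0.465, 32.5% ± 0.419, 33.8% ± 0.330 and 33.9% ± 0.591. Most of the ATP synthase share was MT-ATP8, a short mRNA, at 21.7% ± 2.6 untreated and 15.9% ± 1.5 on day 5. MT-ATP6 went from 8.7% ± 0.126 to 5.76% ± 0.168. TPM was also weighted by length, so that a share is one of bases, over the mitochondrial mRNAs and rRNAs with values. MT-CO1 alone then went from 19.7% ± 0.549 in the untreated libraries to 27.3% ± 1.47 on day 5. The rRNAs together held 10.1% ± 0.337 of these bases in the untreated libraries. The tRNAs have no values and rRNA removal is not given, so these are not shares of the mitochondrial RNA in the cells.

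**Figure D1:**
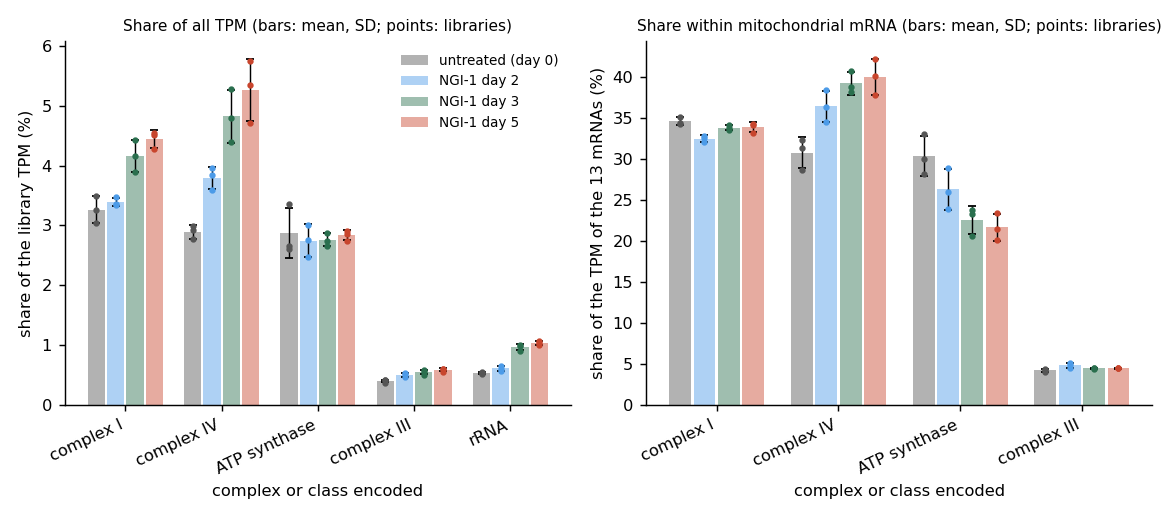
Share of all TPM in a library (left, %) and share of the TPM of the 13 mitochondrial mRNAs (right, %) by complex or class, with bars for group means, error bars for the SD of 3 libraries and points for libraries. On the left, complex IV climbs from 2.89% to 5.27% while ATP synthase keeps its level, and on the right ATP synthase falls from 30.4% to 21.6%.

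Another abundant group moved over the same days. Transcripts of 77 cytoplasmic ribosomal protein genes held 28.6% ± 0.531 of the TPM in untreated cells, 33.6% ± 0.324 on day 2, 42.4% ± 2.10 on day 3 and 48.4% ± 0.858 on day 5 (SD, n = 3 per group). Set against the remaining nuclear transcripts, without those 77 genes, the mitochondrial sum was 16.2% ± 1.20 of the nuclear TPM in untreated cells and 37.9% ± 3.18 on day 5. The part of the ribosomal protein genes in the mitochondrial shares was not tested.

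On days 3 and 5 most features were called lower on this scale, and none of the 15 mitochondrial features was. The median log2 fold change of all 11939 features was -0.18 on day 2, -0.73 on day 3 and -0.99 on day 5, and the median of the 15 mitochondrial features was 0.20, 0.38 and 0.49. At day 2, 1 of 15 was called higher and 0 lower, where 8.04% of all features were called higher and 23.2% lower. At day 3, 6 of 15 were called higher and 0 lower, against 7.59% and 61.5% of all features. At day 5, 7 of 15 were called higher and 0 lower, against 7.73% and 69.8%. Those 7 were MT-CO1, MT-RNR2, MT-ND1, MT-CO2, MT-RNR1, MT-CYB and MT-CO3.

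Counting libraries rather than tests, 7 of the 15 features lay wholly above the untreated libraries on day 2, 10 on day 3 and 12 on day 5, where 16.9%, 11.1% and 10% of all features did so. MT-ATP6 alone lay wholly below the untreated libraries on each day, as did 44.1%, 70.5% and 75.2% of all features. The 2 that remained on day 5, MT-ATP8 and MT-ND6, overlapped.

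**Figure D2:**
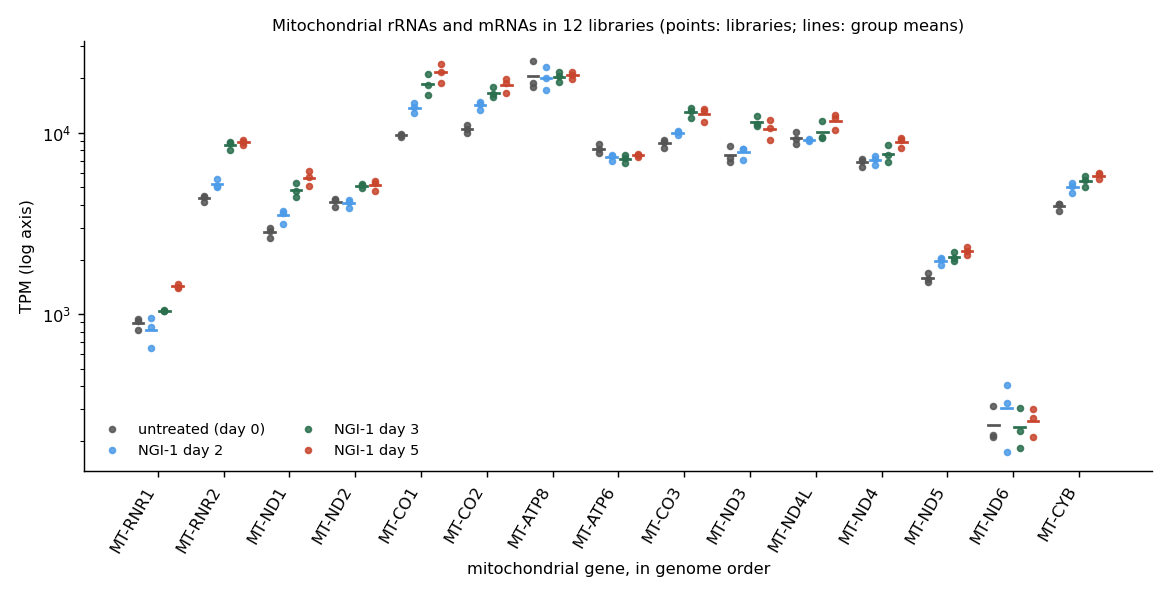
TPM on a log axis of the 15 mitochondrial mRNAs and rRNAs in genome order, with points for the 12 libraries and lines for the means of the 4 groups. MT-CO1 climbs from a mean of 9678 TPM untreated to 21539 on day 5, MT-ATP8 stays near 20538, and MT-ND6 has the lowest levels and the widest spread.

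The levels of single mRNAs spanned a wide range in untreated cells. MT-ATP8 had the highest mean, 20538 TPM, the fourth highest of all features, and MT-ND6 the lowest of the 15, 245 TPM. MT-CO2 (10503 TPM), MT-CO1 (9678 TPM), MT-ND4L (9329 TPM), MT-CO3 (8742 TPM), MT-ATP6 (8191 TPM), MT-ND3 (7586 TPM) and MT-ND4 (6882 TPM) followed. From MT-CO1 to MT-ND4 each neighbour in this order overlapped the next over its 3 libraries. MT-RNR2, MT-ND2 and MT-CYB overlapped in turn, with means of 4353, 4156 and 3939 TPM, and MT-ND1, MT-ND5 and MT-RNR1 lay below them at 2834, 1589.5 and 894 TPM, each apart from its neighbours. At day 5 the order was led by MT-CO1 (21539 TPM), MT-ATP8 (20802 TPM) and MT-CO2 (18394 TPM), which overlapped one after the other. The place of the rRNAs in this order may depend on whether rRNA was removed before sequencing, which is not given. The level of MT-ATP8 rests on 207 bases, of which MT-ATP6 shares 46. The part of this short length in its rank was not tested.

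Complex IV passes electrons to oxygen, and the mitochondrial genome supplies its catalytic core. MT-CO1 (chrM:5904-7445) encodes the subunit that holds the site of oxygen reduction. Its level was 9740.3, 9831 and 9463 TPM in the untreated libraries, 12887, 14545 and 13805 on day 2, 18282, 16162 and 21223 on day 3 and 24097, 21582 and 18937 on day 5. The untreated libraries lay close together, and every treated library exceeded them. By limma, MT-CO1 rose by 0.50 on the log2 scale on day 2 (SE 0.0964, adjusted p = 0.000904), 0.93 on day 3 (adjusted p = 1.08e-06) and 1.15 on day 5 (adjusted p = 7.77e-08). It was the largest rise among the 15 features at days 2 and 5. The call on day 2 stood just over the fold threshold and was lost without H3 (0.49) or without H5 (0.46).

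MT-CO2 (chrM:7586-8269) encodes the subunit that accepts electrons from cytochrome c. It stood at 11064, 10492 and 9955 TPM in untreated cells, 13366, 14825 and 14499 on day 2, 16417, 15768 and 17881 on day 3 and 19848, 18752 and 16581 on day 5. The treated libraries were again all higher. Its log2 fold change was 0.44 on day 2, under the fold threshold though with an adjusted p of 0.000334 by limma, and it was called higher on day 3 (0.67) and day 5 (0.81, SE 0.0735, adjusted p = 1.74e-07). MT-CO3 (chrM:9207-9990), the third subunit of the core, was at 9094, 8906 and 8227 TPM untreated, 9728, 10232 and 10086 on day 2, 13272, 12015 and 13657 on day 3 and 13491, 13147 and 11546 on day 5. Its rise was 0.57 on day 3 and 0.54 on day 5 (SE 0.069, adjusted p = 5.19e-06 by limma). The day 5 call was lost without H3 (0.497) or without H10 (0.496).

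The rRNAs are the RNA of the mitochondrial ribosome. MT-RNR2 (chrM:1671-3229), the 16S rRNA of the large subunit, was at 4473, 4407 and 4177 TPM in the untreated libraries, 5101, 5043 and 5574 on day 2, 8782, 8009 and 8944 on day 3 and 9149, 8954 and 8568 on day 5. The step came between day 2 and day 3. Its log2 fold change against untreated cells was 0.27 on day 2, 0.98 on day 3 and 1.03 on day 5, the last 2 called (adjusted p = 8.35e-09 and 2.28e-09, limma). MT-RNR1 (chrM:648-1601), the 12S rRNA of the small subunit, was at 941, 819 and 922 TPM untreated, 847, 651 and 951 on day 2, 1043, 1043 and 1050.3 on day 3 and 1464, 1420.2 and 1391 on day 5. H5 was the lowest library of this rRNA, and day 2 overlapped the untreated libraries. MT-RNR1 was called higher on day 5 only (0.67, SE 0.107, adjusted p = 4.4e-05, limma), with -0.15 on day 2 and 0.23 on day 3. Whether rRNA was removed before sequencing is not given in the sources used here. If it was, these values describe what was left. They need not give the level, rank or change of the rRNAs in the cells, and this was not tested.

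Complex I is the entry point of electrons from NADH, and its 7 mitochondrial subunits lie in the membrane arm. MT-ND1 (chrM:3307-4262), near the site where ubiquinone binds, was at 2996, 2872 and 2632 TPM untreated, 3161, 3729 and 3621 on day 2, 4771, 4441 and 5279.7 on day 3 and 6130, 5709 and 5123 on day 5. It was higher in all 9 treated libraries, was not called on day 2 (0.30), and was called on day 3 (0.77) and day 5 (0.99, SE 0.0876, adjusted p = 1.23e-07, limma). MT-ND3 (chrM:10059-10404) was at 7307, 8503 and 6949.5 TPM untreated, 8149.7, 7057 and 8171 on day 2, 12417, 10850 and 11206 on day 3 and 9164, 10666 and 11703 on day 5. It overlapped the untreated libraries on day 2, was called higher on day 3 (0.60, adjusted p = 7.07e-05, limma), and was under the fold threshold on day 5 (0.47), where leaving out H2 or H10 gave 0.55 and 0.56.

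On the deposited scale none of the other complex I mRNAs was called against untreated cells with all libraries in the fit. MT-ND5 (chrM:12337-14148), part of the proton-pumping arm, was at 1566, 1689.5 and 1513 TPM untreated and 2358, 2224 and 2121 on day 5, with a log2 fold change of 0.49 that passed the threshold without H2 (0.54) or H12 (0.53). MT-ND4 (chrM:10760-12137) was at 6986, 7190.1 and 6469 TPM untreated and 9421, 9146 and 8284 on day 5, MT-ND4L (chrM:10470-10766) at 9246, 10077 and 8664 and 12615, 12070 and 10388, and MT-ND2 (chrM:4470-5511) at 4255, 4306 and 3906 and 5270.1, 5432 and 4791. In all 3 the day 5 libraries lay above the untreated ones. MT-ND4, MT-ND4L and MT-ND2 had day 5 log2 fold changes of 0.38, 0.32 and 0.31, all with an adjusted p under 0.05 by limma and none past the fold threshold. Across the 7 complex I mRNAs the day 5 log2 fold changes ran from 0.086 (MT-ND6) to 0.99 (MT-ND1), with a median of 0.38.

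MT-ND6 (chrM:14149-14673) is the only mRNA that GENCODE places on the - strand. Its levels were 209.7, 309.6 and 214 TPM untreated, 409, 174 and 324 on day 2, 304, 182 and 227 on day 3 and 209.7, 266 and 298 on day 5. The groups overlapped, and H4 and H5 of day 2 held the highest and the lowest value. The day 5 difference was 0.086 with a 95% confidence interval from -0.50 to 0.67, which holds both 0 and the day 5 value of MT-CYB (0.56). At day 2, leaving out H5 turned 0.24 into a call of 0.60. Whether strand was used in quantification is not given in the sources used here, and without it reads from MT-ND6 and from + strand RNA across the same bases cannot be told apart.

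Complex III passes electrons from ubiquinol to cytochrome c, and MT-CYB (chrM:14747-15887), cytochrome b, is its only mitochondrially encoded subunit. It was at 4077, 4041 and 3700.3 TPM untreated, 4659, 5287 and 5115 on day 2, 5509, 5019 and 5759 on day 3 and 6012, 5897 and 5543 on day 5. All treated libraries lay above the untreated ones. The log2 fold change was 0.35, 0.46 and 0.56 at days 2, 3 and 5, called on day 5 alone (SE 0.0688, adjusted p = 3.34e-06, limma), and on day 3 it passed the threshold without H8 (0.52).

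ATP synthase makes ATP from the proton gradient, and its mitochondrial subunits form part of the proton channel and its attachment. MT-ATP6 (chrM:8527-9207) was at 8117, 8714 and 7742 TPM untreated, 7029, 7529 and 7481 on day 2, 7270.3, 6819 and 7560.2 on day 3 and 7661, 7595 and 7400.5 on day 5. Every treated library was below every untreated one, by a small margin. The log2 differences of -0.16, -0.18 and -0.12 had adjusted p-values of 0.0433, 0.011 and 0.0792 by limma and did not reach the fold threshold. MT-ATP8 (chrM:8366-8572) was at 17953, 24931 and 18731 TPM untreated, 23107, 17155 and 20017 on day 2, 21527, 20624 and 19045 on day 3 and 19736, 20966 and 21703 on day 5. The groups overlapped on all days, and its day 5 difference of 0.033 had a 95% confidence interval from -0.22 to 0.29. At 207 bases it is the shortest of the 13, and 46 of these bases are the ones printed above that MT-ATP6 also holds.

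**Figure D3:**
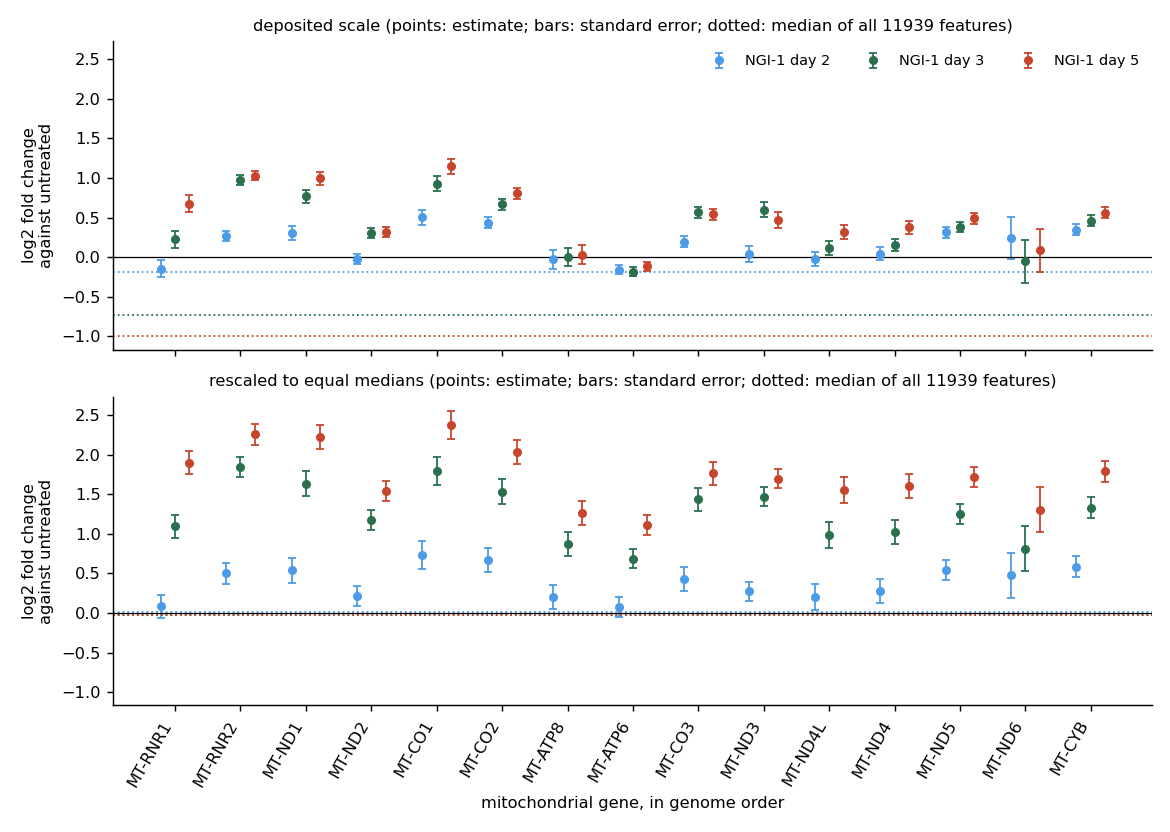
Log2 fold change against untreated cells of the 15 features at days 2, 3 and 5, with points for limma estimates, bars for standard errors and dotted lines for the median of all 11939 features, on the deposited scale (top) and with libraries rescaled to equal medians (bottom). On the deposited scale MT-ATP6 and MT-ATP8 stay near 0 while MT-CO1 reaches 1.15, and after rescaling all 15 features lie above 0.

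How far the members moved depended on the scale. In a second scaling each library was divided by a single factor so that, over 5433 features whose mean TPM reached 10, the median log2 ratio was the same in all libraries. The median of all tested features was then 0.013 on day 2, -0.027 on day 3 and -0.019 on day 5. On this scale 5 of 15 mitochondrial features were called higher on day 2, 15 on day 3 and 15 on day 5, where 12.9%, 23.9% and 27.5% of all features were. The day 5 rise ran from 1.11 in MT-ATP6 to 2.37 in MT-CO1, and MT-ATP8 stood at 1.26 (adjusted p = 6.76e-06, limma). Against the nuclear transcripts without ribosomal protein genes, 2, 12 and 15 of 15 were called higher on the 3 days, and 12.4%, 15.4% and 17.2% of all features. With a fold threshold of 1 on the deposited scale, 0, 0 and 2 were called, and 2.19%, 2.76% and 3.42% of all features, the 2 being MT-CO1 and MT-RNR2. MT-ATP6 thus lay below untreated cells on the deposited scale and above them at days 3 and 5 on both other scales (0.69 and 1.11 after rescaling).

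Ratios between members of the same library do not depend on the scale. The log2 ratio of MT-CO1 to MT-ATP6 was 0.24 ± 0.061 in untreated cells, 0.90 ± 0.041 on day 2, 1.35 ± 0.124 on day 3 and 1.51 ± 0.149 on day 5 (SD, n = 3 per group). In TPM, MT-CO1 thus stood at 1.18 times MT-ATP6 in untreated cells and at 2.85 times on day 5, with no overlap between untreated and treated libraries. These are ratios of TPM and not of counted molecules. MT-CO1 also gained on its partners in complex IV. Its log2 ratio to MT-CO3 went from 0.15 ± 0.052 to 0.76 ± 0.071, and that to MT-CO2 from -0.12 ± 0.059 to 0.23 ± 0.048. In complex I, MT-ND1 to MT-ND2 went from -0.55 ± 0.042 to 0.13 ± 0.078. These ratios show unequal change and not which of the pair changed.

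Other ratios held their level or turned. MT-RNR2 to MT-RNR1 was 2.29 ± 0.128 untreated, 2.70 ± 0.222 on day 2, 3.03 ± 0.082 on day 3 and 2.64 ± 0.017 on day 5 (SD, n = 3 per group), so the day 5 libraries lay above the untreated ones and below those of day 3. The overlapping neighbours MT-ND4L and MT-ND4 kept a log2 ratio of 0.44 ± 0.044 untreated and 0.38 ± 0.05 on day 5. For MT-ATP8 to MT-ATP6 the values were 1.31 ± 0.188 and 1.46 ± 0.094. In both pairs the groups overlapped.

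**Figure D4:**
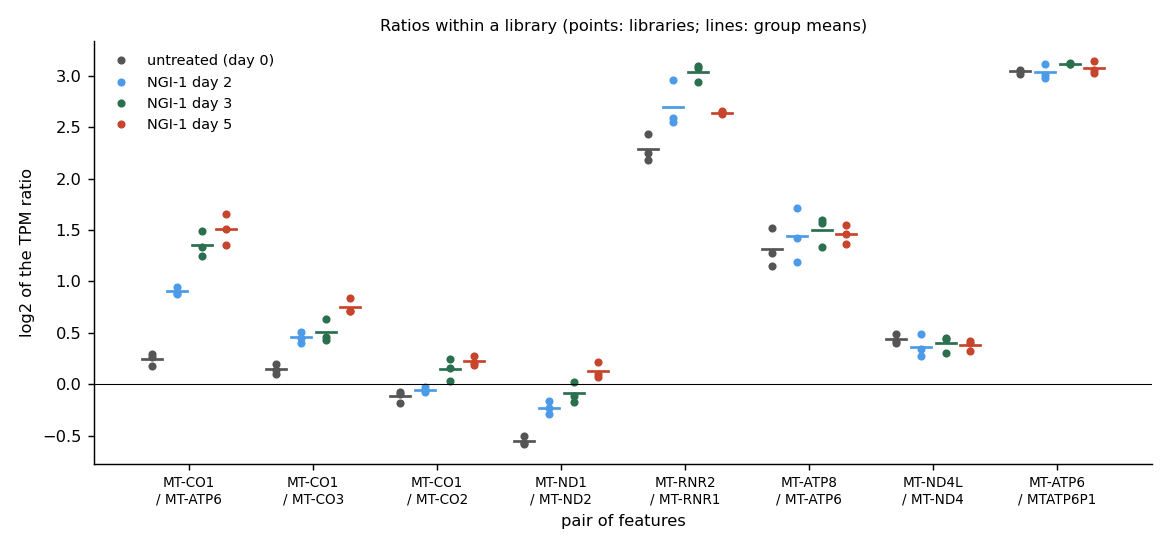
Log2 of the TPM ratio of pairs of features within a library, with points for the 12 libraries and lines for group means. MT-CO1 to MT-ATP6 climbs from 0.24 to 1.51, MT-RNR2 to MT-RNR1 is highest on day 3, and MT-ATP6 to its nuclear copy MTATP6P1 stays near 3.04.

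Of the steps between treated days, more of the 15 features were called between day 2 and day 3 than between day 3 and day 5. At the earlier step 2 of 15 features were called higher and 0 lower, where 3.22% of all features were called higher and 55.5% lower, and the median of all features was -0.57. The called features were MT-RNR2, which rose by 0.71 (SE 0.0603, adjusted p = 1.21e-06, limma), and MT-ND3, which rose by 0.56 (adjusted p = 0.000228, limma) and lost its call without H5 (0.49). Another 6 had an adjusted p under 0.05 and a fold change under the threshold, among them MT-ND1 (0.46) and MT-CO1 (0.43). Both passed the threshold without H8 (0.52 each), and MT-ND1 also without H5 (0.51). For the count of 6 no share of all features is given here. In 9 of 15 features every day 3 library lay above every day 2 library, as in 6.93% of all features. After rescaling, 14 of 15 were called higher against 14.3% of all features, all but MT-ND6 (0.34), and against nuclear transcripts without ribosomal protein genes 8 of 15 against 8.19%.

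From day 3 to day 5 none of the 15 was called by limma on the deposited scale, in either direction, where 0.670% of all features were called higher and 13.1% lower. The estimate lay above 0 in 13 of 15, and the median of all features was -0.25. At an unadjusted p under 0.05 there were 5 higher and 0 lower. No share of all features is given here for the counts of 13 and 5. Of the 5, MT-RNR1 alone had an adjusted p under 0.05, with a difference below the fold threshold (0.45, adjusted p = 0.00924, limma). It was also the 1 feature whose day 5 libraries all exceeded those of day 3, as 3.45% of all features did. After rescaling 4 of 15 were called higher against 4.43% of all features, led by MT-RNR1 (0.80), and against nuclear transcripts without ribosomal protein genes 1 of 15 against 2.49%.

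The 22 tRNAs carry amino acids to the mitochondrial ribosome. All 22, of 59 to 75 bases in GENCODE, were listed at 0 in all 12 libraries, so no value of theirs can be compared. Short features were listed at 0 in general. Of 2474 features whose longest GENCODE transcript was under 100 bases, 1 had a value above 0 in any library (0.04%), against 89 of 3332 features of 100 to under 200 bases (2.67%) and 25532 of 46099 features of 300 bases or more (55.4%).

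Nuclear DNA holds copies of mitochondrial genes, and reads of the mitochondrial RNAs can be assigned to them. The table listed 408 such copies by symbol, 8 of which passed the filter, and together they took 0.111% ± 0.008 of the TPM untreated and 0.111% ± 0.007 on day 5 (SD, n = 3 per group). The most abundant was MTATP6P1 (GRCh38 chr1:633696-634376), with 10 differences to MT-ATP6 over 681 bases (98.5% identity). To show how alike they are, 120 bases of both genes are printed here, MT-ATP6 from chrM:8599-8718 and MTATP6P1 from chr1:633768-633887, both on the + strand, with the 4 bases that differ in capitals.
MT-ATP6: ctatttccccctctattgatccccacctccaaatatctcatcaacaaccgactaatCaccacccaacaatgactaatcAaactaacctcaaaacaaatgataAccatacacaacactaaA
MTATP6P1: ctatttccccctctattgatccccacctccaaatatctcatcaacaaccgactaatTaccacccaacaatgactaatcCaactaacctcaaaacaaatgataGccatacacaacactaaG

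MTATP6P1 was at 976, 1075 and 936 TPM in untreated cells and 942, 912 and 836 on day 5, and MT-ATP6 stood at 8.23, 8.18, 8.68 and 8.44 times its level on the 4 time points. MTCO1P12 (98.6% identity with MT-CO1) had means of 40.1, 59.2, 80.4 and 97.2 TPM in time order and was called higher on day 5 (1.25), next to 1.15 for MT-CO1. MTND1P23 (99.1% identity with MT-ND1) was called higher too (1.20, next to 0.99 for MT-ND1). MTND2P28 and MTCO3P12 had 0.26 and 0.49 and were not called. Their genes MT-ND2 and MT-CO3 had 0.31 and 0.54. Adding the copies to their genes changed no call among the 15 features. Whether a read came from a copy or from the mitochondrial gene cannot be told apart in these values.

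Across the 13 mRNAs, the day 5 log2 fold change was set beside properties of the genes. With GC content, which ran from 39.6% in MT-ATP8 to 47.7% in MT-ND1, Pearson's r was 0.67 and Spearman's rho 0.79 (n = 13). With length they were 0.47 and 0.55, and with position in the genome -0.40 and -0.22. The 13 points share their libraries and their scale, and no test was run. Over 11619 of the 11924 nuclear features tested, r was -0.092 with GC content and -0.14 with length.

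Genes of the nucleus that act on mitochondrial DNA and RNA were mostly called lower on the deposited scale, as most features were. Over 8 lists with 81 tested genes, 1 was called higher on day 5 and 70 lower, where 7.73% of all features were called higher and 69.8% lower, with a median log2 fold change of -1.45 beside -0.99 for all features. After rescaling 14 were called higher and 29 lower, with a median of -0.34, where 27.5% of all features were called higher and 26.9% lower. The counts of the single lists stand against the same shares. Among the transcription genes, POLRMT, the mitochondrial RNA polymerase, had a day 5 log2 fold change of -1.30, from 30.9, 29.2 and 30.4 TPM in untreated cells to 9.64, 11.9 and 13.9 on day 5. TFAM, which packages the genome and opens its promoters, fell by 1.55 on the log2 scale, from 36, 36.5 and 34.9 to 12.2, 11.2 and 11.2 TPM. TEFM, the elongation factor of this polymerase, was the 1 gene of the 81 called higher: it was at 20.8, 16.7 and 20.3 TPM untreated, 16, 16.2 and 16.8 on day 2, 29.1, 28.8 and 30.8 on day 3 and 41.4, 38.2 and 41.2 on day 5. TEFM rose by 0.60 on day 3 and 1.03 on day 5, with no overlap between untreated and day 5 libraries. After rescaling POLRMT and TFAM were at -0.14 and -0.38, neither called, and TEFM at 2.21. TFB2M, a factor that opens the promoter with the polymerase and is named here after its values were seen, was not called on the deposited scale (-0.40) and was called higher after rescaling (0.79). MTERF1 was in the transcription list and under the filter, and 4 of its 5 genes were tested.

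LRPPRC and SLIRP form a complex that protects mitochondrial mRNAs from decay. LRPPRC was at 98.5, 107 and 108 TPM untreated and 32.6, 33.9 and 32 on day 5 (-1.64 on the log2 scale), and SLIRP at 385, 396 and 404 and 250.4, 259 and 244 (-0.65). Both were called lower, and after rescaling LRPPRC stood at -0.44, not called, and SLIRP at 0.57, called higher. In the list of stability and decay genes 11 of 12 were called lower on day 5 (median -1.24), the largest fall in FASTKD5 (-2.21), and FASTK (-0.45) was not called. After rescaling 4 of the 12 were called higher and 2 lower (median -0.068). Of the cleavage and polyadenylation genes 5 of 6 fell (median -2.07), led by the deadenylase PDE12 (-2.30), and TRMT10C, a subunit of mitochondrial RNase P, was not called (-0.36) and was called higher after rescaling (0.83).

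The remaining lists of this machinery held no gene called higher on the deposited scale. For rRNA maturation 18 of 18 genes fell (median -1.40), from YBEY (-0.78) to the rRNA methyltransferase MRM2 (-2.26). For tRNA modification 10 of 12 fell (median -1.64), with QTRT2 at -2.72 and TRNT1, which adds the CCA end, at -0.019 and not called. Replication and maintenance had 10 of 11 lower (median -1.41), with the exonuclease MGME1 at -2.51 and PRIMPOL at 0.0039. Translation factors had 9 of 12 lower (median -1.54), with the elongation factor GFM1 at -2.04 and the initiation factor MTIF3 at 0.38, not called. Of 6 regulators of mitochondrial biogenesis 5 were lower (median -1.195), among them NRF1 (-1.56), PPARGC1A (-0.74, from 4.25 to 2.23 TPM) and PPRC1 (-2.13), and ESRRA was not called (-0.30). After rescaling, 0 of the 18 rRNA maturation genes were called higher and 4 lower, 3 and 7 of the 12 tRNA modification genes, 1 and 4 of the 11 replication genes, 2 and 5 of the 12 translation factors, 1 and 3 of the 6 biogenesis regulators, and 1 and 4 of the 6 cleavage and polyadenylation genes. The medians of the 8 lists then lay below 0 except that of the transcription list (0.33), and ran down to -0.93 for cleavage and polyadenylation. FASTK (0.71), TRNT1 (1.12), MTIF3 (1.57) and ESRRA (0.88) were then called higher.

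**Figure D5:**
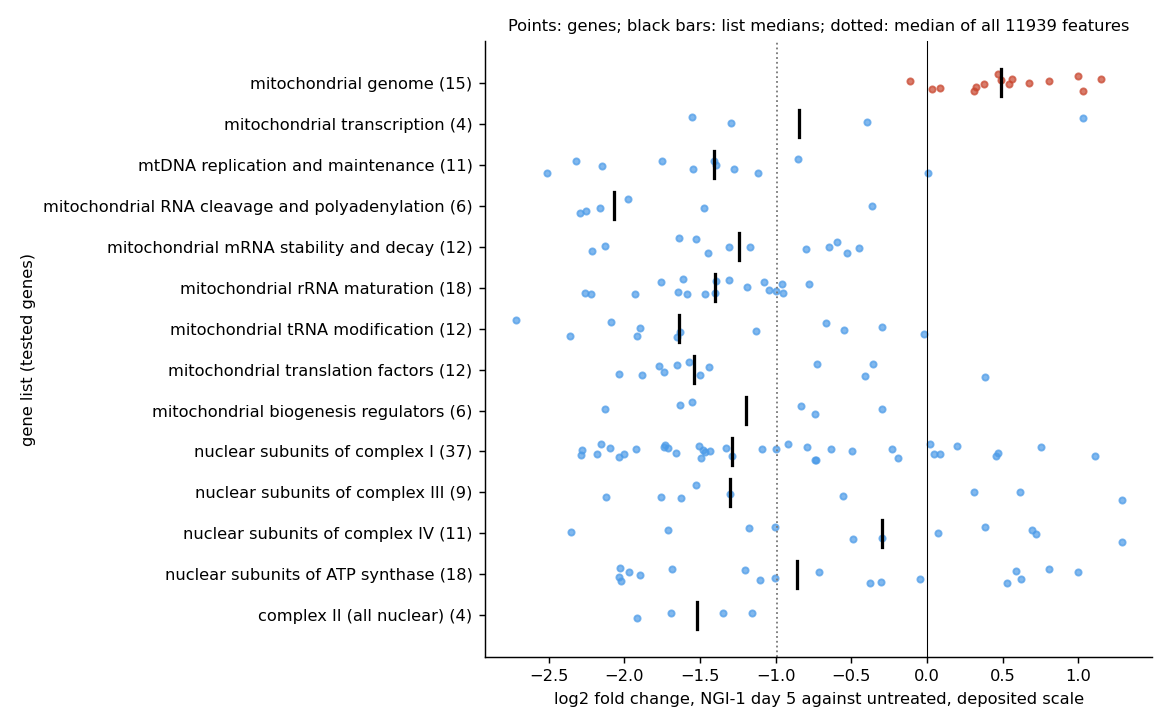
Log2 fold change on day 5 against untreated cells, deposited scale, of the 15 mitochondrial features (top row) and of the tested genes of 13 lists of nuclear genes, with points for genes, black bars for list medians and a dotted line for the median of all 11939 features. The mitochondrial features have a median of 0.49, and the medians of all 13 nuclear lists lie below 0, from -2.07 to -0.30.

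The nuclear subunits of the complexes had calls in both directions. Over 79 tested subunits, complex II included, 12 were called higher and 50 lower on day 5, beside 7.73% and 69.8% of all features, with a median of -1.09. After rescaling 32 were higher and 19 lower, beside 27.5% and 26.9%, with a median of 0.12. Nuclear complex IV subunits had the highest list median (-0.30), with 3 of 11 called higher and 4 lower, from COX8A (-2.35) to COX7C (1.29). For ATP synthase 5 of 18 were higher and 10 lower (median -0.86), from the c-ring gene ATP5MC1 (-2.04) to ATP5F1E (1.0). Nuclear complex I had 2 of 37 higher and 26 lower (median -1.29), from NDUFA9 (-2.29) to NDUFS4 (1.11), and complex III 2 of 9 higher and 6 lower (median -1.30), from UQCRC1 (-2.12) to UQCRB (1.29). After rescaling, the medians were 0.93 for complex IV (7 higher, 1 lower), 0.36 for ATP synthase (9 higher, 5 lower), -0.082 for complex I (12 higher, 10 lower) and -0.11 for complex III (4 higher, 2 lower). On the deposited scale all 4 subunits of complex II, which has none in the mitochondrial genome, were called lower, from SDHB (-1.91) to SDHD (-1.16), and after rescaling 1 of the 4 was (median -0.31). In each of complexes I, III and IV, the deposited-scale median of the nuclear subunits on day 5 was below 0 while that of the mitochondrial ones was 0.38, 0.56 and 0.81. For ATP synthase both medians lay below 0 on that scale, at -0.86 for the nuclear and -0.041 for the mitochondrial subunits. After rescaling, the mitochondrial medians were 1.605 for complex I, 1.79 for complex III, 2.03 for complex IV and 1.185 for ATP synthase. Each lay above the rescaled nuclear median of its complex, and for complex IV and ATP synthase both medians were then above 0.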

How the data were processed

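RNA was measured by paired-end total RNA sequencing in 12 MM1S libraries, 3 in each of 4 groups taken from the labels. The authors deposited 1 table of log2(TPM + 1) per gene symbol. The submitters' processing notes name hg38, FastQC, Trimmomatic, STAR and Salmon without versions. The annotation release, rRNA removal and strand setting are not given in the sources used here. Symbols were matched to GENCODE release 29 on GRCh38 for positions, lengths and sequences. The table has 0 columns of other series. Read counts per feature are unknown, so precision rests on the 3 libraries of a group.

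Groups were compared with limma 3.58.1 in R 4.3.3 on log2(TPM + 1), in 1 fit of all 4 groups with a mean-variance trend, over features with at least 1 TPM in at least 3 libraries and with Benjamini-Hochberg adjustment over all of them. A call required a log2 fold change beyond 0.5 in either direction with adjusted p below 0.05. The procedure was tested on simulated data. Alternatives changed the filter, pseudocount, scaling, fit, trend or fold threshold, added nuclear copies, or left out each library. Every MT- symbol is accounted for. Nuclear copies are named at a mean of at least 10 TPM, and nuclear genes as the largest rise and fall on day 5 of each list, beside POLRMT, TFAM, TEFM, LRPPRC, SLIRP, PPARGC1A and NRF1. One marker list is not reported here. The members and lists were chosen with earlier results of these data known. Python 3.11.15, matplotlib 3.10.9 and Biopython 1.88 were also used.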

Additional observations from a re-analysis of the deposited data

Results flagged for a closer look

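Between day 2 and day 3, a direct test of the treated groups gave an adjusted p under 0.05 in 8 of 15 features (limma), all higher on day 3. The share of all features under this p alone is not given here, so the count of 8 has nothing to be read against. In 2 of the 8 the difference also passed the fold threshold of 0.5, where 3.22% of all features were called higher and 55.5% lower. MT-RNR2 was higher on day 3 than on day 2 by 0.711 on the log2 scale (SE 0.0603, adjusted p = 1.21e-06, limma), with all 3 day 3 libraries above all 3 day 2 libraries. MT-ND3 was higher by 0.561 (adjusted p = 0.000228, limma), also without overlap, and fell under the fold threshold when H5 was left out (0.491). Groups of 3 libraries are too small for a test of single outlying libraries, and none was run.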

How the results depend on the processing

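Without a filter, with a minimum of 5 TPM, with a pseudocount of 0.1, without a mean-variance trend, with a fit of each pair of groups alone, or with nuclear copies added, no call among the 15 features changed in any of the 5 comparisons. The scale and the fold threshold did change counts. After rescaling to equal medians, 5, 15 and 15 features were called higher on days 2, 3 and 5 against untreated cells, 14 from day 2 to day 3 and 4 from day 3 to day 5. Scaled to nuclear features without ribosomal protein genes, these counts were 2, 12, 15, 8 and 1. With a fold threshold of 1 they were 0, 0 and 2 against untreated cells and 0 from day 2 to day 3. Leaving out each library gave 0 to 1 (0 without H3), 6 to 7 and 6 to 9 higher against untreated cells on days 2, 3 and 5, 2 to 4 higher from day 2 to day 3 (4 without H8), and 0 to 1 lower at that step (1 without H5, MT-ND6 at -0.645). The mitochondrial share was 16.186%, 19.94%, 30.033% and 37.933% of nuclear TPM without ribosomal protein genes in untreated, day 2, day 3 and day 5 cells, and 10.436%, 12.282% and 13.129% of all TPM on days 2, 3 and 5 without the rRNAs. With each library left out the share of all TPM ran from 9.564% to 10.256% untreated, 10.949% to 11.117% on day 2, 12.899% to 13.65% on day 3 and 13.91% to 14.523% on day 5.

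Log2 differences that were below 0 on the deposited scale and above 0 after rescaling were, on day 2, MT-RNR1 (0.087), MT-ND2 (0.213), MT-ATP8 (0.207), MT-ATP6 (0.077) and MT-ND4L (0.207), on day 3 MT-ATP6 (0.686) and MT-ND6 (0.815), on day 5 MT-ATP6 (1.111), from day 2 to day 3 MT-ATP6 (0.609) and MT-ND6 (0.341), and from day 3 to day 5 MT-CO3 (0.329) and MT-ND3 (0.225). Scaled to nuclear features they were, on day 2, MT-RNR1 (0.004), MT-ND2 (0.13), MT-ATP8 (0.124) and MT-ND4L (0.124), on day 3 MT-ATP6 (0.291) and MT-ND6 (0.423), on day 5 MT-ATP6 (0.601), from day 2 to day 3 MT-ATP6 (0.297) and MT-ND6 (0.03), and from day 3 to day 5 MT-CO3 (0.214) and MT-ND3 (0.11). The scaling itself moves every feature of a library by 1 factor, and no other cause was tested. Small differences also changed sign with 1 library left out. On day 2 they ran from -0.265 to 0.008 for MT-RNR1, -0.064 to 0.02 for MT-ND2, -0.133 to 0.121 for MT-ATP8, -0.02 to 0.126 for MT-ND3, -0.078 to 0.031 for MT-ND4L and -0.018 to 0.596 for MT-ND6. On day 3 they ran from -0.085 to 0.152 for MT-ATP8 and -0.241 to 0.133 for MT-ND6, and on day 5 from -0.056 to 0.181 and -0.025 to 0.268. From day 2 to day 3 the ranges were -0.078 to 0.137 for MT-ATP8 and -0.061 to 0.014 for MT-ATP6, and from day 3 to day 5 -0.026 to 0.064 for MT-ND2, -0.02 to 0.069 for MT-ATP8, -0.084 to 0.039 for MT-CO3 and -0.04 to 0.327 for MT-ND6. The causes were not tested.

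No paired analysis was possible because the labels number the libraries from H1 to H12 and give no number that groups share. With 3 libraries in a group and no read counts, differences in a feature with the spread of MT-ND6 were not resolved.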
